A study of Homo sapiens with 22 samples.

Results

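The 39 genes of the human HOX clusters were measured by RNA sequencing in HT1080, a fibrosarcoma cell line. They are every gene of the deposited table named HOX with a cluster letter from A to D and a number, 39 of 60675 genes in all: 11 in HOXA, 10 in HOXB, 9 in HOXC and 9 in HOXD. The study asked how gene expression changes when a single lysine deacetylase (KDAC, also called HDAC) loses its activity. There were 22 libraries in 6 groups, all of HT1080 cells. WT cells were untreated (4 libraries). KDAC6H216A and KDAC6H611A each carry a histidine-to-alanine point mutation of 1 catalytic domain of KDAC6, and KDAC8H143A carries such a mutation in KDAC8 (4 libraries each, untreated, genotype labels HDAC6H216A, HDAC6H611A and HDAC8H143A). WT cells were also treated for 2 days with 1 µM Tubastatin A, an inhibitor used against KDAC6, or with 5 µM PCI-34051, an inhibitor used against KDAC8 (3 libraries each). The mutant lines were made by genome editing and grown from single colonies. KDAC6H216A was a pool of 3 such lines, and KDAC8H143A also has an unintended intronic insertion near the edited site. The effect of a mutation and other differences between the lines therefore cannot be told apart. No vehicle control was named for the inhibitors. The methods call the libraries of a group biological replicates but do not describe how the cultures were separated, so p-values measure the spread between these libraries. A point mutation cannot be checked from the level of a gene's mRNA.

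HOX genes encode homeodomain transcription factors that give cells their position along the body axis. Within a cluster the genes lie in the order of their numbers, and in the embryo low numbers are used towards the head and high numbers towards the tail, a rule known as collinearity. Fibroblasts and tumours of connective tissue keep part of this code, and Polycomb and trithorax proteins are known for holding HOX clusters in silent or active chromatin. On GRCh38 (GENCODE 44) HOXA spans 107.1 kb of chromosome 7 (27092993 to 27200091, minus strand) and HOXB 200.2 kb of chromosome 17 (48528526 to 48728750, minus strand). HOXC spans 117.2 kb of chromosome 12 (53938831 to 54056030, plus strand) and HOXD 98.2 kb of chromosome 2 (176092721 to 176190907, plus strand). HOXB13, the last gene of HOXB, ends 196.2 kb from HOXB1, whereas its nearest neighbour HOXB9 ends 92.6 kb from it.

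Promoter windows are shown for 4 members that differed between groups below and have an entry in the RefSeq promoter table (GRCh38.p14), HOXA4 and HOXA9 from HOXA and HOXD10 and HOXD11 from HOXD. Each is the stretch from 250 to 31 bases before a start site, 5′ to 3′ on the strand of the gene, and capitals mark matches on either strand to the TATA box (TATAAA), the CCAAT box, the GC box (GGGCGG) or a HOX and PBX site (TGATNNAT). The HOXA4 window is at chr7:27130788-27131007 (minus strand), that of HOXA9 at chr7:27165568-27165787 (minus strand), that of HOXD10 at chr2:176116528-176116747 (plus strand) and that of HOXD11 at chr2:176107030-176107249 (plus strand). In GENCODE the last 3 lie inside the span of longer transcripts of the same gene, and none of the 4 overlaps an annotated exon.
HOXA4: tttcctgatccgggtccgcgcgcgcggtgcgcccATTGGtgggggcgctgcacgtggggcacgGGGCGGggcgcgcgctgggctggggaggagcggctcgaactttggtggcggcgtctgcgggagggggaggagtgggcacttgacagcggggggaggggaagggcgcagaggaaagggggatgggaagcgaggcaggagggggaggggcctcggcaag
HOXA9: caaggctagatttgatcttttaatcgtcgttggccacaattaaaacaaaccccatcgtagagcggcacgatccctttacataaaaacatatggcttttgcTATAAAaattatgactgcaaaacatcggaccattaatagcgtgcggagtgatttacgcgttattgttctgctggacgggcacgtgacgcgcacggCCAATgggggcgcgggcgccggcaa
HOXD10: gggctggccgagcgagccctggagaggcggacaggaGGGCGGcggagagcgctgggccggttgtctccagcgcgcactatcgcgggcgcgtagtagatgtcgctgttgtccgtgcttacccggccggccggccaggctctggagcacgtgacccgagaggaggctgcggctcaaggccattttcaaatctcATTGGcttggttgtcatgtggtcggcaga
HOXD11: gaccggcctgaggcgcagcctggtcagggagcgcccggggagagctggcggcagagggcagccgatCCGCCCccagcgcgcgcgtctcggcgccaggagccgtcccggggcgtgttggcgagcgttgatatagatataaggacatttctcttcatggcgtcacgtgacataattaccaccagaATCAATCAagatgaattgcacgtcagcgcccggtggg

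The windows of HOXA4, HOXD10 and HOXD11 are rich in G and C (74.1%, 66.4% and 63.6%) with 23, 22 and 23 CpG dinucleotides, and that of HOXA9 is poorer in G and C (48.2%, 19 CpG) and holds the single TATAAA of the 4. Over the 20 members with an entry (27 windows) the median was 18 CpG, against 9 over the windows of all 35116 entries. CCAAT was in 17 of the 27 windows and in 29.8% of all windows, GGGCGG in 13 and 38.9%, TATAAA in 3 and 8.08%, and TGATNNAT in 3 and 5.9%. A match describes letters in the window and is not a measured binding site.

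Total counts per library ranged from 5248953 to 29862665, and the inhibitor libraries were the deepest. HOX genes took 0.0147% to 0.015% of the total counts in WT libraries, 0.0151% to 0.0198% in KDAC6H216A and 0.0129% to 0.0191% in KDAC6H611A. The share was 0.0461% to 0.0983% in KDAC8H143A, 0.0254% to 0.0268% with Tubastatin A and 0.0255% to 0.0265% with PCI-34051. The share of counts from both rRNA genes of the mitochondrion (MT-RNR1, MT-RNR2) moved with the groups: 20.8% to 23.9% in WT, 0.195% to 15.1% in KDAC6H216A, 0.173% to 38.0% in KDAC6H611A, and at most 0.0259% in KDAC8H143A and in both inhibitor groups. Its part in the differences from WT was not tested. The summed CPM of 8 fibroblast and mesenchymal markers was 3268 to 7897, most of it from VIM, FN1 and CD44. COL1A2, THY1 and S100A4 stayed at or under 4.42 CPM. COL1A1 ranged from 0.279 CPM in KDAC6H216A to 22.8 CPM in KDAC8H143A (2.8 to 3.73 CPM in WT). The 7 epithelial markers summed to at most 1.16 CPM and the 7 blood and endothelial markers to at most 3.72 CPM.

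Levels are given as CPM, counts scaled to the size of each library with TMM factors, and levels of different genes are compared as CPM per kb of exon. In WT cells 22 members were at 1 CPM or more in all 4 libraries (6 of HOXA, 8 of HOXB, 5 of HOXC and 3 of HOXD). HOXB9, which patterns the rib cage with its paralogs, was the highest at 12.8 CPM per kb. HOXB6 (6.13), HOXB2 (5.48), HOXA9 (5.13), HOXB4 (4.11) and HOXB7 (4.02) came next in CPM per kb. Among these, the CPM of HOXB6, HOXB2 and HOXA9 overlapped between libraries (14.2 to 18.0, 10.3 to 15.2 and 13.7 to 17.8 CPM). The summed level of a cluster in WT was 36.4 ± 1.79 CPM for HOXA, 93.2 ± 3.61 for HOXB, 18.7 ± 1.85 for HOXC and 20.8 ± 1.7 for HOXD (SD, n = 4). At least 1 CPM in every library was reached by 26 members with PCI-34051, 25 with Tubastatin A, 24 in KDAC8H143A, 23 in KDAC6H216A and 21 in KDAC6H611A. These numbers are not on equal terms, since the rule covered 3 libraries for each inhibitor and 4 for every other group. The inhibitor libraries were also deeper (24315766 to 29862665 total counts, against 5248953 to 8998474 in WT). HOXA7, HOXA11, HOXB1, HOXC12, HOXD1, HOXD3, HOXD4 and HOXD12 reached 1 CPM in no library, with a highest value of 0.658 CPM (HOXD12 in 1 WT library).

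**Figure D1:**
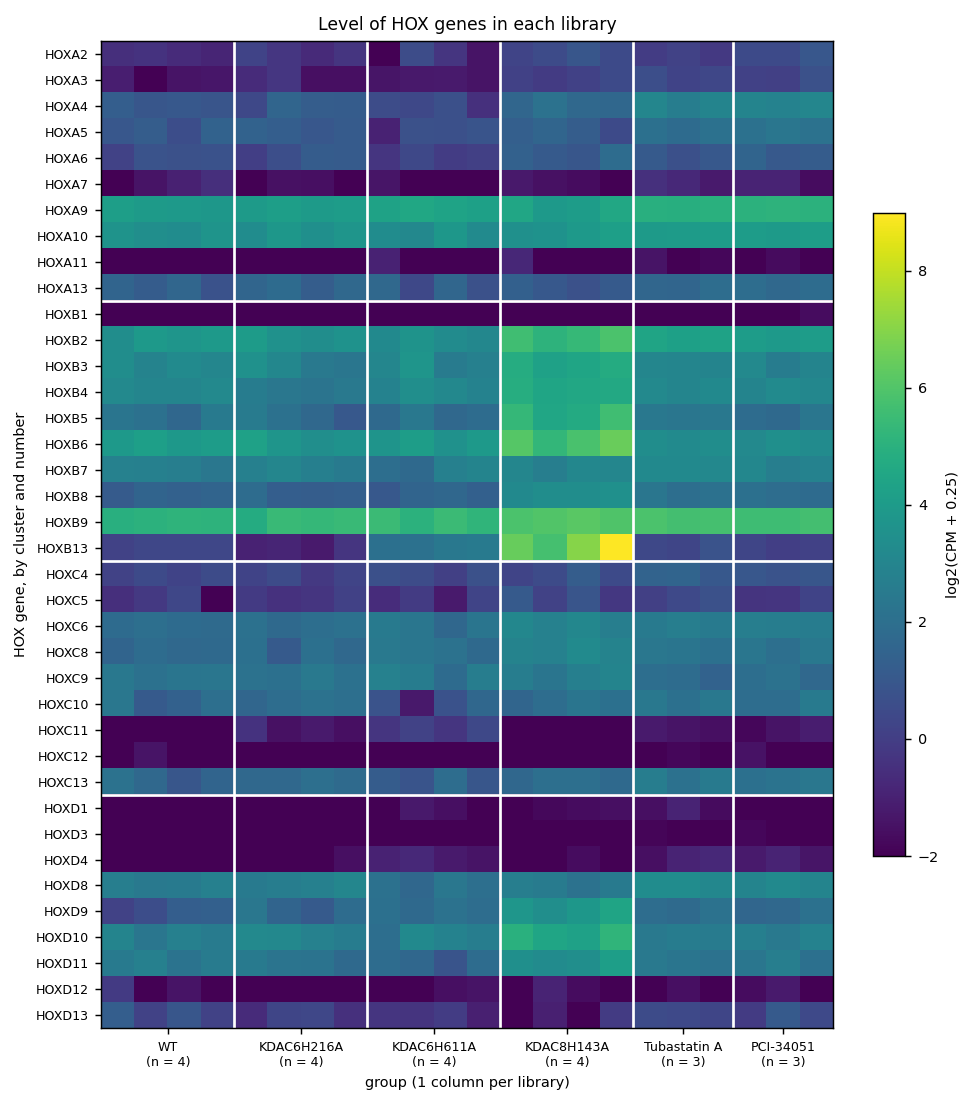
Level of HOX genes (rows, by cluster and number) in each of the 22 libraries (columns, by group), as log2 of CPM plus 0.25. HOXB9, HOXA9 and HOXA10 are bright in every group, most HOXB genes (not HOXB1 or HOXB7) and HOXD9 to HOXD11 are brightest in KDAC8H143A, and HOXB13 reaches 505 CPM in 1 library of that line.

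With all libraries in the fit, KDAC6H216A, mutated in the first KDAC6 domain, had no called change of any HOX gene. Of 24 members tested in KDAC6H216A against WT, 0 were called higher and 0 lower by the quasi-likelihood test of edgeR (threshold 0.01 after Benjamini-Hochberg adjustment over all genes tested), where 0.214% of all genes tested were called higher and 0.621% lower. HOXB4 and HOXD9 were below 0.05 before adjustment, and DESeq2 called 0. The median log2 fold change of the members was 0.09, against 0.0 over all genes tested. HOXB4, which expands blood stem cells when overexpressed, had the smallest adjusted p: 5.88, 4.86, 4.39 and 5.2 CPM in KDAC6H216A and 8.77, 7.68, 7.63 and 8.84 CPM in WT. All 4 mutant libraries were below the WT libraries, with a log2 fold change of -0.72 ± 0.16 (SE, 95% interval -1.08 to -0.35, adjusted p = 0.054 by edgeR). Replicate 1 of KDAC6H216A had 0.1946% of mitochondrial rRNA, against 13.15% to 15.07% in replicates 2 to 4. Without replicate 1, 3 of the members were called, HOXB6, HOXB4 and HOXB9, while the share of all genes tested rose to 12.2% higher and 13.8% lower. In replicates 2 to 4 HOXB6 (10.6 to 12.8 CPM) lay below WT (14.2 to 18.0). HOXB9 (39.3 to 43.0 CPM) lay above WT (30.3 to 34.7).

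In KDAC6H611A, with the second domain mutated, HOXB13 was the single called member. Of 24 members tested against WT, 1 was called higher and 0 lower, where 6.08% of all genes tested were called higher and 6.24% lower, and the median log2 fold change was -0.05 (0.03 over all genes). HOXB13, a gene of the tail end of the axis known from the prostate, was at 3.84, 4.02, 5.02 and 5.52 CPM in KDAC6H611A and at 0.877, 1.01, 1.02 and 1.03 CPM in WT. The WT values rest on 4 to 8 counts per library. The groups did not overlap, with a log2 difference of 2.23 ± 0.27 (SE, adjusted p = 9.65e-05 by edgeR). HOXB13 was at 5.52 CPM in replicate 4, the library of this line with 0.173% of mitochondrial rRNA, and at 3.84 to 5.02 CPM in the others. In a fit of all 6 groups together, where the spread of HOXB13 in KDAC8H143A enters, the log2 fold change of HOXB13, KDAC6H611A against WT, was 2.22 (adjusted p = 0.0519 by edgeR). HOXD9 (1.12 ± 0.31, adjusted p = 0.0198), HOXD11 (-0.96 ± 0.28, 0.0283) and HOXA9 (0.43 ± 0.13, 0.0287) did not overlap WT either but were not called by edgeR. HOXD8 (2.97 to 4.93 CPM against 5.16 to 6.63 in WT) and HOXA4 (0.47 to 1.37 CPM against 1.62 to 2.19) also lay below every WT library without being called. HOXC11 was at 0 in every WT library and at 0.548 to 1.06 CPM in KDAC6H611A, and was not tested after the filter on low counts. HOXA4 values were 1.23, 1.05, 1.37 and 0.47 CPM here and HOXA5 values 0.274, 1.4, 1.37 and 1.53 CPM, neither called.

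The KDAC6 mutant lines were also compared directly. Of 24 members tested in KDAC6H611A against KDAC6H216A, 1 was called higher and 0 lower (4.61% and 5.31% of all genes tested), and the median log2 fold change was -0.08. HOXB13 was at 0.261, 0.298, 0.183 and 0.557 CPM in KDAC6H216A, below every WT library and every KDAC6H611A library. Its log2 fold change between the lines was 3.78 ± 0.37 (SE, 95% interval 2.96 to 4.6, adjusted p = 0.000111 by edgeR). The level in KDAC6H216A is low and the gene was not tested there against WT, so no fold change is given for it. HOXB4 (0.72 ± 0.21, adjusted p = 0.0382) and HOXD8 (-0.7 ± 0.21, 0.0411) did not overlap between the lines but were not called by edgeR.

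HOX genes of the KDAC8H143A line stood well above WT, mostly in HOXB and HOXD. Of 26 members tested, 14 were called higher (53.8%) and 0 lower, where 31.6% of all genes tested were called higher and 26.9% lower. The 14 were 8 of 9 tested in HOXB, 3 of 4 in HOXD, 2 of 6 in HOXC and 1 of 7 in HOXA, and none of them overlapped WT. How many of all called genes overlapped WT was not counted. The median log2 fold change was 0.98 over the members and 0.08 over all genes tested. By cluster it was 1.78 in HOXB, 1.67 in HOXD, 0.46 in HOXC and 0.37 in HOXA. In RNA of whole cultures, more cells that express a gene and more RNA per cell cannot be told apart.

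HOXB13 differed most. It was at 85.2, 53.9, 126 and 505 CPM in KDAC8H143A, and its lowest library there was 52.2 times the highest WT library. This was a log2 fold change of 7.60 ± 0.84 (SE, 195-fold, adjusted p = 1.27e-05 by edgeR), and 6.49 without replicate 4. WT libraries held only 4 to 8 counts of HOXB13, so the size of the fold rests on few counts. The spread within the line was wide, with the highest library 9.37 times the lowest, and without replicate 4 the mean was 88.2 ± 36.0 CPM (SD, n = 3). With 63.3 CPM per kb on average, HOXB13 was the highest HOX gene of this line, ahead of HOXB9 (24.8) and HOXB6 (23.8), whereas in WT it was at 0.323 CPM per kb. In the 2 inhibitor groups HOXB13 stayed at 0.768 to 1.52 CPM.

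The genes in the middle of HOXB rose as well. HOXB5, which helps to place the shoulder girdle, was at 39, 22.3, 25.8 and 49.3 CPM against 4.6, 4.03, 2.92 and 5.3 CPM in WT (log2 fold change 3.08 ± 0.27, adjusted p = 3.24e-06 by edgeR). HOXB8, which can hold myeloid progenitors in an immature state, was at 9.0, 10.2, 10.2 and 11.3 CPM against 1.97, 2.64, 2.42 and 2.65 (2.11 ± 0.18). HOXB6 was at 66.9, 38.2, 55.9 and 87.3 CPM against 15.1, 18.0, 14.2 and 16.5 (2.00 ± 0.21). All 3 had mutant libraries more than 2 times above the highest WT library. Next to them, HOXB7 was at 7.91, 6.24, 8.28 and 8.02 CPM against 6.8, 6.54, 6.23 and 4.86, which overlapped WT (0.38 ± 0.18, adjusted p = 0.077 by edgeR).

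At the low-numbered end of HOXB the differences were smaller than for HOXB5. HOXB2, a hindbrain patterning gene, was at 48.2, 33.6, 40.2 and 58.3 CPM against 10.3, 15.2, 13.1 and 15.2 in WT (log2 fold change 1.78 ± 0.18). HOXB3, also of the hindbrain, was at 27.6, 19.0, 21.5 and 26.7 CPM against 10.1, 7.3, 9.41 and 7.96 (1.51 ± 0.16), and HOXB4 at 28.2, 21.6, 24.0 and 24.1 CPM against 8.77, 7.68, 7.63 and 8.84 (1.64 ± 0.14). Every library of the line was above every WT library for these genes. HOXB9, already the highest gene in WT, was at 58.2, 63.0, 72.6 and 62.5 CPM against 30.3, 33.1, 34.7 and 34.3 (1.01 ± 0.11). The summed HOXB level went from 93.2 ± 3.61 to 464 ± 251 CPM (SD, n = 4), and without HOXB13 from 92.2 ± 3.55 to 271 ± 47.6 CPM.

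Of HOXD, HOXD9, HOXD10 and HOXD11, known from limb patterning, rose, and HOXD8 beside them was not called. HOXD9 was at 13.3, 10.5, 13.8 and 20.8 CPM against 0.877, 1.26, 2.16 and 2.36 in WT (log2 fold change 3.12 ± 0.29, adjusted p = 4.73e-06 by edgeR). HOXD10, whose promoter window is printed above, was at 30.7, 21.4, 19.2 and 36.1 CPM against 7.45, 4.78, 6.61 and 5.75 (2.19 ± 0.22). HOXD11 was at 10.7, 9.53, 10.5 and 17.6 CPM against 5.48, 6.67, 4.32 and 5.75 (1.16 ± 0.22). With a correction for GC content and length HOXD10 was at 2.35, HOXD9 at 2.13 and HOXD11 at 0.21, no longer called. The exons of HOXD10 and HOXD11 share 452 bases with each other, 18.2% of HOXD10 and 21.4% of HOXD11. Reads of these bases could come from either gene, and their part in the HOXD11 value was not tested. HOXD8 was at 6.14, 5.71, 4.21 and 5.49 CPM against 6.14, 5.16, 5.59 and 6.63 (-0.06 ± 0.19). HOXD13 was at 0.0 to 0.698 CPM against 0.881 to 2.19 CPM and was not tested after the filter, and DESeq2 called it lower.

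Few genes of HOXC and HOXA were called in the line. HOXC8, of the thoracic region, was at 7.23, 6.87, 9.4 and 7.33 CPM against 2.63, 3.4, 3.05 and 3.09 in WT (log2 fold change 1.39 ± 0.20), and HOXC6 at 8.16, 6.87, 8.21 and 6.28 CPM against 3.29, 3.78, 3.31 and 3.24 (1.17 ± 0.19). HOXC4 was at 0.925, 1.16, 2.11 and 1.13 CPM (0.44 ± 0.36) and HOXC13, a hair gene, at 2.94, 3.73, 3.72 and 3.14 CPM (0.34 ± 0.28), neither called. In HOXA, HOXA4 was at 2.86, 4.21, 3.02 and 2.97 CPM against 2.19, 1.64, 1.78 and 1.62 (0.94 ± 0.26, adjusted p = 0.00596 by edgeR), a call lost with DESeq2 and without most single libraries. HOXA2 (0.925, 1.16, 1.68 and 1.13 CPM against 0.438, 0.503, 0.381 and 0.295) was not tested, and HOXA5 (2.27, 2.71, 2.11 and 1.13 CPM), HOXA9 (22.2, 14.7, 16.4 and 24.0 CPM) and HOXA10 (11.3, 11.8, 14.9 and 18.0 CPM) overlapped WT.

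Some of these values changed with a correction for GC content and length. The members had a median GC content of 55.2% and a median exon length of 2.46 kb, against 48.7% and 4.48 kb over protein-coding genes. With a smooth term for both, 12 members were called higher and 0 lower in KDAC8H143A (21.4% and 26.5% of all genes tested), and the median log2 fold change went from 0.98 to 0.4. HOXD11 (0.21, adjusted p = 0.299 by edgeR with the correction) and HOXA4 (0.26, 0.453) were no longer called. HOXB13 (6.85), HOXB5 (2.55), HOXD10 (2.35) and HOXD9 (2.13) kept most of their difference on the log2 scale. The median over the tested members went from 1.78 to 1.23 in HOXB and from 1.67 to 1.17 in HOXD.

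**Figure D2:**
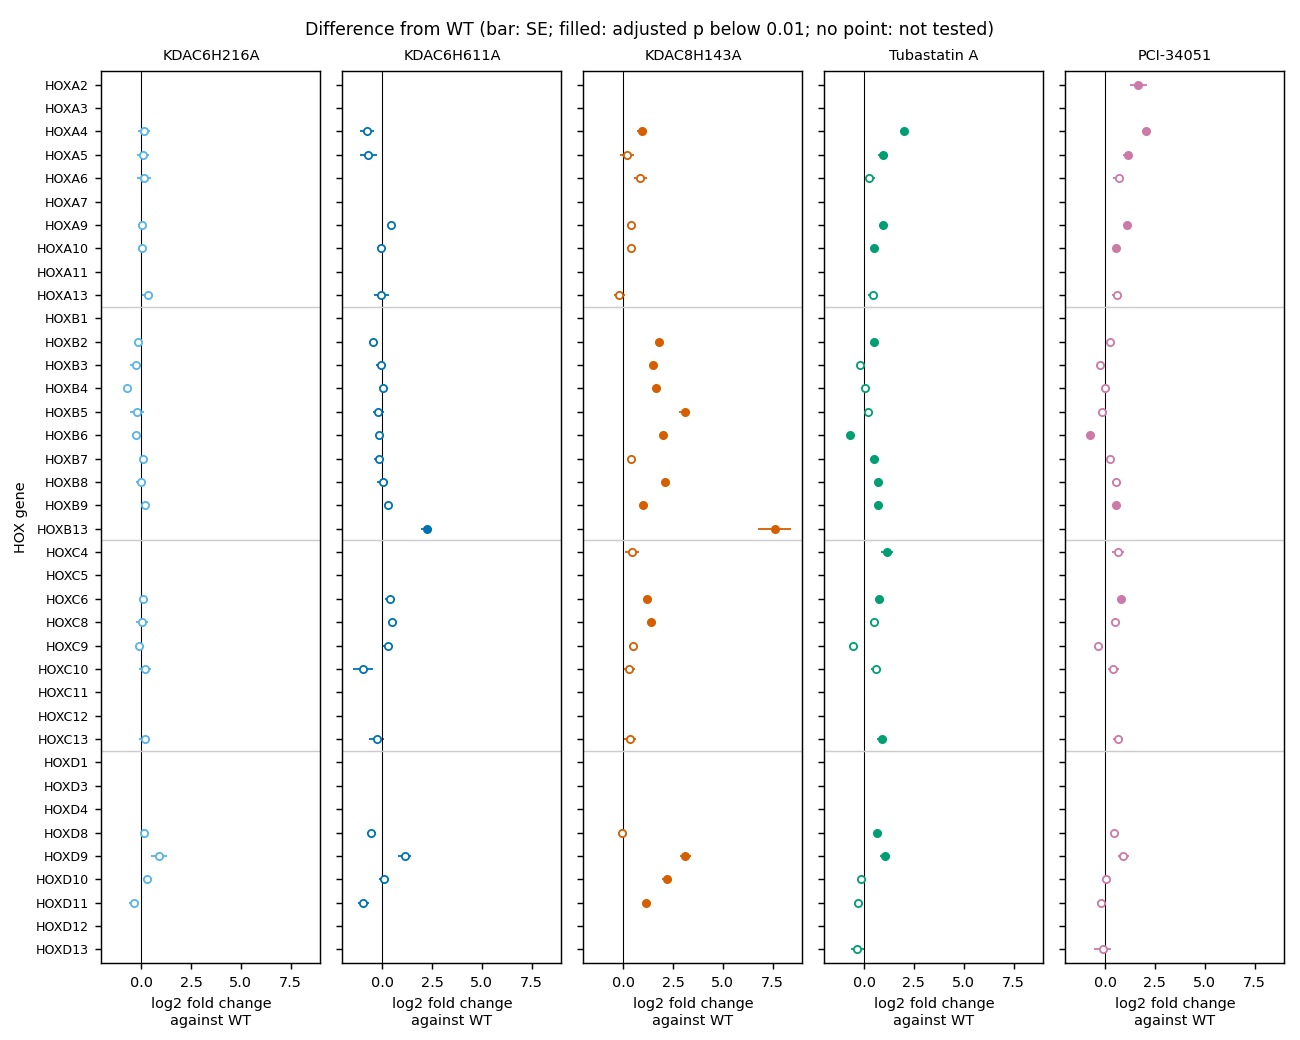
Log2 fold change against WT of tested HOX genes (rows) in each mutant line and inhibitor group (panels), with bars for the SE and filled points for an adjusted p below 0.01. Filled points gather in HOXB and HOXD for KDAC8H143A and in HOXA for PCI-34051 and lie in all clusters for Tubastatin A, HOXB13 is the single filled point of KDAC6H611A, and KDAC6H216A has none.

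**Figure D3:**
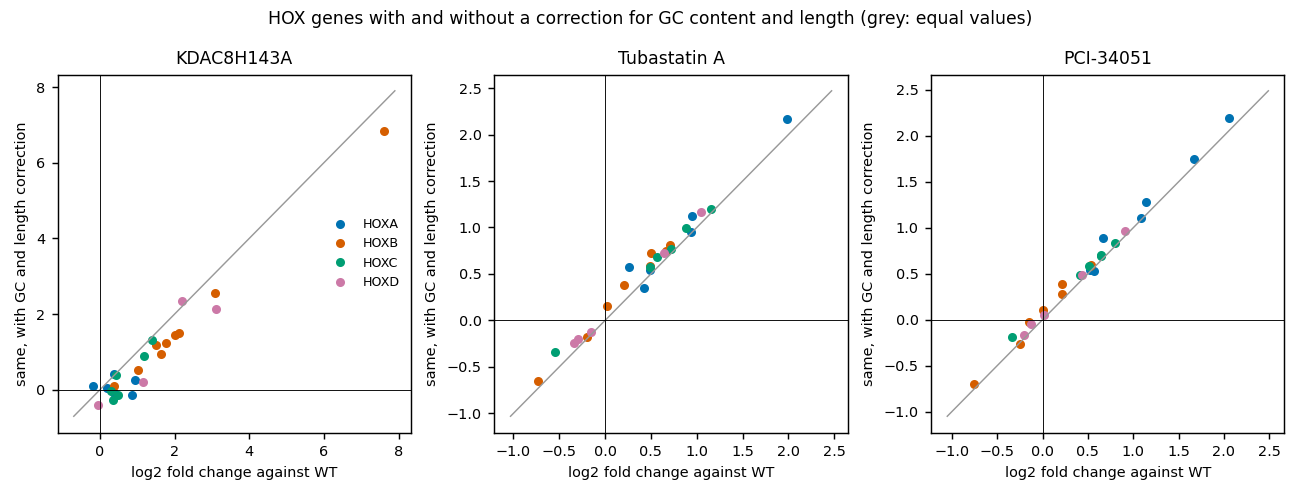
Log2 fold change against WT of the tested HOX genes without (horizontal axis) and with (vertical axis) the correction for GC content and length, by cluster, in KDAC8H143A and the inhibitor groups. In KDAC8H143A most points lie under the grey line of equal values, and with the inhibitors they lie on it or slightly above.

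With Tubastatin A the called members came from all 4 clusters, and with PCI-34051 6 of the 9 were of HOXA. In cells treated with Tubastatin A, 14 of 26 members tested were called higher and 1 lower, where 29.3% of all genes tested were called higher and 28.6% lower, and the median log2 fold change was 0.5 (-0.0 over all genes). In cells treated with PCI-34051, 8 of 27 were called higher (29.6%) and 1 lower, where 25.5% of all genes tested were called higher and 25.6% lower, and the median was 0.52 (-0.01 over all genes). By cluster, Tubastatin A had 5 of 7 tested members higher in HOXA, 4 of 8 in HOXB, 3 of 6 in HOXC and 2 of 5 in HOXD. PCI-34051 had 6 of 8 higher in HOXA, 1 of 8 in HOXB, 1 of 6 in HOXC and 0 of 5 in HOXD. With the correction for GC content and length, 2 of HOXD were called higher with PCI-34051. Compared directly, the inhibitors differed by a called amount in 0 of 30 members tested, so a cluster pattern particular to either compound is not shown. Both comparisons with WT use the same WT libraries, so their values are set side by side and their likeness is not a separate result.

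HOXA4 differed most from WT with either compound. It was at 7.88, 6.12 and 7.51 CPM with Tubastatin A (log2 fold change 1.98 ± 0.20, adjusted p = 5.26e-08 by edgeR), and 7.51, 7.04 and 8.05 CPM with PCI-34051 (2.06 ± 0.19, 5.79e-08), against 1.62 to 2.19 CPM in WT. Part of this gene cannot be told from its neighbours, since 31.3% of its exon bases are shared with a gene on the same strand and 16.5% with a gene on the other. HOXA5, needed for the airways, was at 3.96, 3.35 and 4.07 CPM (0.95 ± 0.24) and at 4.03, 4.73 and 4.17 CPM (1.14 ± 0.23) with the compounds in the same order, above the 1.27 to 2.5 CPM of WT. HOXA4 and HOXA5 are weakly expressed, and their treated libraries did not overlap WT.

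HOXA9 and HOXA10 rose from higher levels than HOXA4 and HOXA5, while HOXA13 was not called with either compound. HOXA9, known for its role in leukaemia, went from 17.8, 15.6, 15.1 and 13.7 CPM in WT to 30.2, 29.3 and 31.0 CPM with Tubastatin A (log2 fold change 0.94 ± 0.08) and 33.0, 34.1 and 33.0 CPM with PCI-34051 (1.09 ± 0.08). HOXA10, which patterns the uterus, went from 12.1, 10.6, 9.79 and 12.7 CPM to 15.7, 16.1 and 16.4 CPM (0.49 ± 0.10) and to 16.5, 15.5 and 16.8 CPM (0.52 ± 0.11). HOXA2, which patterns the second branchial arch, was called with PCI-34051, at 1.12, 1.14 and 1.72 CPM against 0.295 to 0.503 in WT (1.67 ± 0.42, adjusted p = 0.00227 by edgeR). Its WT libraries held only 2 to 4 counts. The HOXA2 call was lost with DESeq2, in the fit of all 6 groups and with the replicate block. With Tubastatin A it was at 0.716, 0.861 and 0.631 CPM and was not tested. HOXA3 was at 0.799 to 1.41 CPM over the 6 treated libraries and at most 0.219 CPM in WT, and was not tested against WT. The summed HOXA level was 68.7 ± 2.35 CPM with Tubastatin A and 73.6 ± 1.13 CPM with PCI-34051 (SD, n = 3), against 36.4 ± 1.79 in WT and 46.1 ± 6.11 in KDAC8H143A (SD, n = 4).

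**Figure D4:**
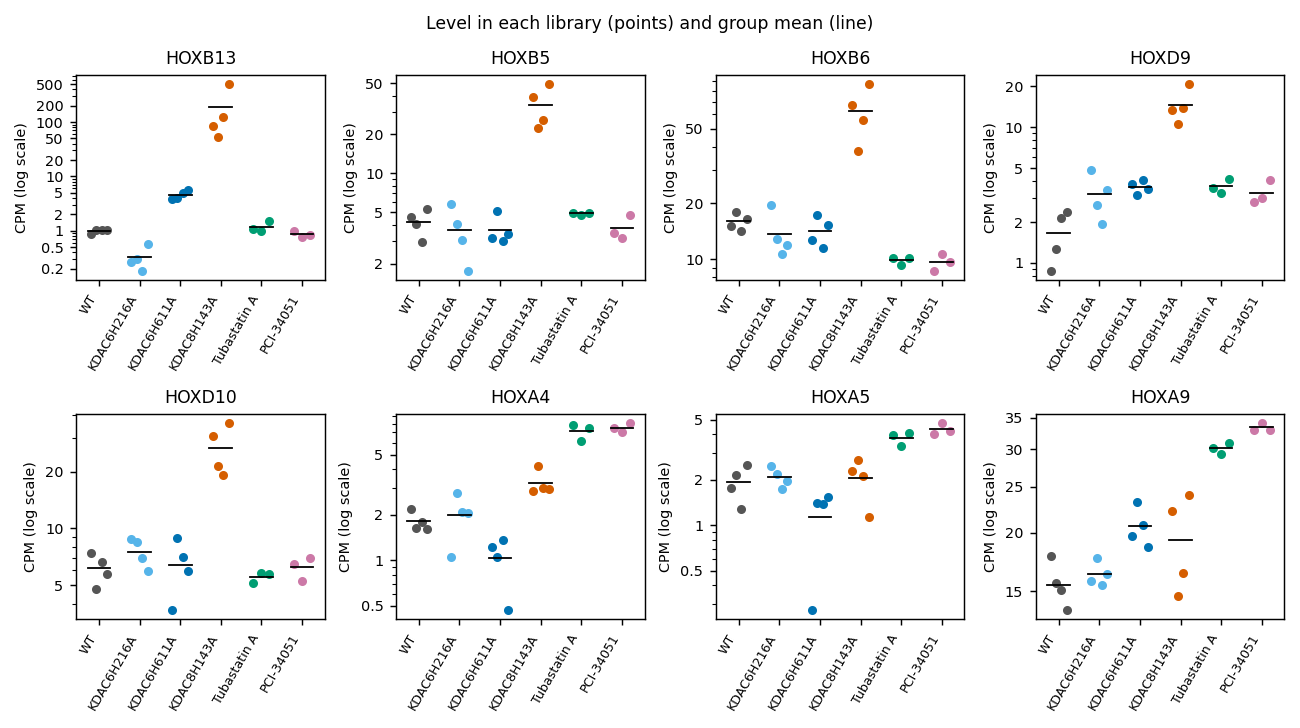
CPM on a log scale of 8 HOX genes in every library (points, by group) with the group mean (line). HOXB13, HOXB5, HOXB6, HOXD9 and HOXD10 stand apart in KDAC8H143A, HOXA4, HOXA5 and HOXA9 stand apart in the inhibitor groups, and HOXB6 is lowest in the inhibitor groups.

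HOXB6 fell with both inhibitors. It was at 10.2, 9.27 and 10.1 CPM with Tubastatin A (log2 fold change -0.73 ± 0.10, adjusted p = 3.43e-06 by edgeR), and 8.67, 10.7 and 9.64 CPM with PCI-34051 (-0.75 ± 0.11, 2.08e-05), below the 14.2 to 18.0 CPM of WT. The exons of HOXB6 share 16.6% of their bases with HOXB3 on the same strand and 16.3% with HOXB-AS3 on the other. HOXB-AS3 fell as well (-2.26 with Tubastatin A and -1.93 with PCI-34051), and its part in the HOXB6 values was not tested. HOXB9 was at 57.8, 51.1 and 53.9 CPM with Tubastatin A (0.67 ± 0.06) and at 46.8, 47.4 and 51.9 CPM with PCI-34051 (0.52 ± 0.07), above all WT libraries. HOXB2 (21.2, 18.5 and 19.6 CPM, 0.49 ± 0.10), HOXB7 (9.03, 8.92 and 8.49 CPM, 0.50 ± 0.13) and HOXB8 (4.73, 3.63 and 4.04 CPM, 0.71 ± 0.21) were called with Tubastatin A, while PCI-34051 had 16.7, 15.2 and 16.6 CPM of HOXB2, 8.27, 6.24 and 7.13 CPM of HOXB7 and 3.88, 3.59 and 3.34 CPM of HOXB8, not called. HOXB3, HOXB4 and HOXB5 were within 0.25 of WT on the log2 scale with either compound. Their intervals ranged from -0.63 to 0.59, and none was called.

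Genes of HOXC and HOXD passed the threshold against WT mostly with Tubastatin A, but none was called between the inhibitors. HOXC6 was at 5.45, 6.31 and 5.52 CPM with Tubastatin A (log2 fold change 0.72 ± 0.17) and 6.2, 6.02 and 5.92 CPM with PCI-34051 (0.80 ± 0.17), above all WT libraries. HOXC4 was at 2.59, 2.68 and 1.8 CPM with Tubastatin A against 0.877, 1.13, 0.89 and 1.18 in WT (1.15 ± 0.30), and at 1.74, 1.51 and 1.69 CPM with PCI-34051 (0.65 ± 0.30, adjusted p = 0.0749 by edgeR). HOXD9 was at 3.55, 3.25 and 4.17 CPM (1.05 ± 0.26) and at 2.83, 3.01 and 4.06 CPM (0.91 ± 0.29, adjusted p = 0.0103 by edgeR), which missed the threshold with PCI-34051. HOXD8 was at 10.0, 9.78 and 8.11 CPM with Tubastatin A (0.64 ± 0.14, called) and 7.47, 9.03 and 7.4 CPM with PCI-34051 (0.43 ± 0.15, not called). HOXC13 was called with Tubastatin A (6.01, 4.05 and 5.52 CPM, 0.88 ± 0.24) although its lowest treated library lay under the highest WT library (4.17 CPM), and was at 3.95, 4.27 and 4.85 CPM with PCI-34051 (0.64 ± 0.24, not called). The other tested genes of these clusters, HOXC8, HOXC9, HOXC10, HOXD10, HOXD11 and HOXD13, were within 0.57 of WT on the log2 scale and not called.

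**Figure D5:**
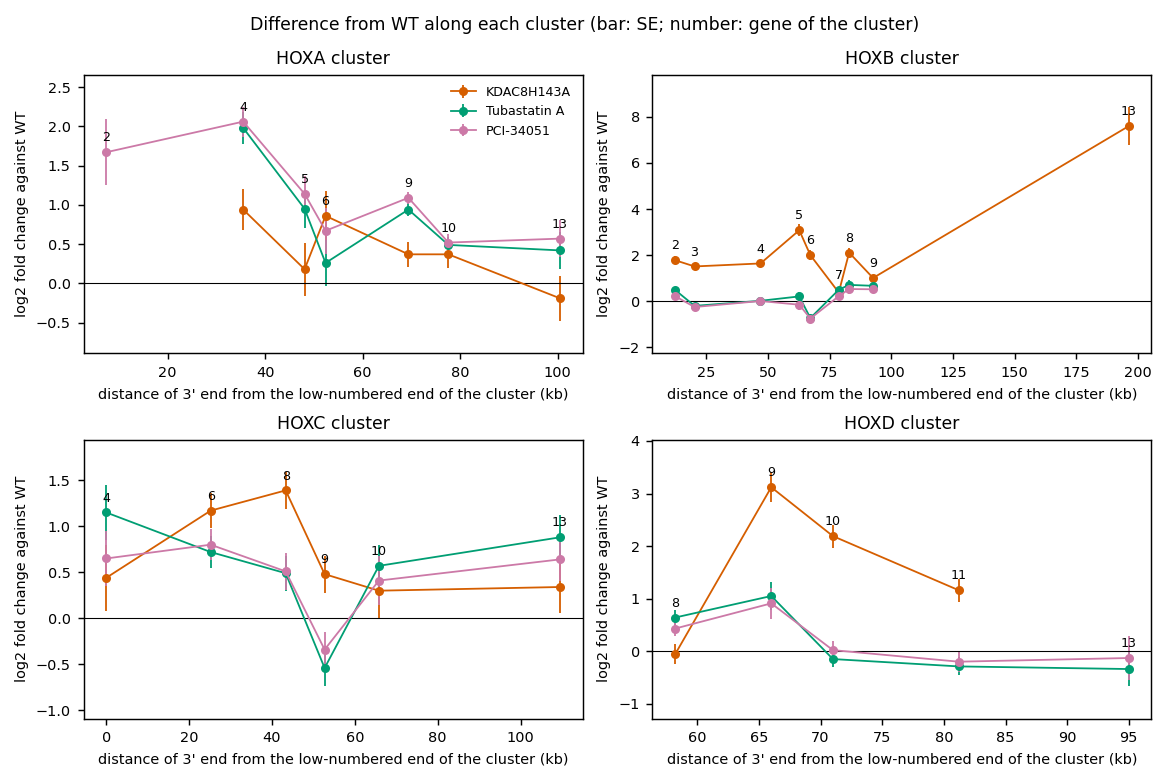
Log2 fold change against WT (vertical axis, bars for the SE) of tested genes of each cluster by the distance of their 3′ ends from the low-numbered end of the cluster (kb), for KDAC8H143A and both inhibitors. With PCI-34051 HOXA2 and HOXA4 towards 1 end of HOXA lie above HOXA10 and HOXA13, with Tubastatin A HOXA4 does (HOXA2 was not tested), and in KDAC8H143A HOXB13 at the far end of HOXB and HOXD9 lie above the other genes of their clusters.

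PCI-34051, used against KDAC8, was compared directly with the KDAC8H143A line, among libraries whose mitochondrial rRNA share was at most 0.0259%. Of 30 members tested, 6 were called higher with PCI-34051 and 11 lower than in KDAC8H143A (30.3% and 27.8% of all genes tested). The groups did not overlap for any of the 17, but overlap was not counted over all called genes. The median log2 fold change was -0.09 (0.02 over all genes), and the clusters differed in direction. HOXA held 5 of the 6 higher members (among them HOXA4 1.29 ± 0.20, HOXA5 1.14 ± 0.28, HOXA13 0.95 ± 0.24 and HOXA9 0.90 ± 0.15), and HOXD8 was the sixth (0.67 ± 0.18). HOXB held 7 of the 11 lower members, from HOXB2 (-1.37 ± 0.16) to HOXB5 (-3.05 ± 0.28) and HOXB13 (-7.67 ± 0.89). HOXD9 (-2.03 ± 0.24), HOXD10 (-1.99 ± 0.22), HOXD11 (-1.17 ± 0.24) and HOXC8 (-0.68 ± 0.19) were the others. Of the 7 fits with 1 library left out, only 1 kept the call of HOXD8, 2 that of HOXA5, 3 that of HOXA13 and 2 that of HOXC8. With the correction for GC content and length 9 were called higher and 10 lower (26.1% and 24.9% of all genes tested), HOXA13 and HOXD11 no longer among them.

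The inhibitors, given at different doses (1 µM Tubastatin A and 5 µM PCI-34051, 2 days each), did not differ by a called amount in any of 30 members tested. Between them 3.45% of all genes tested were called higher with Tubastatin A and 2.2% lower, while 7 members were below 0.05 before adjustment and DESeq2 called 0. Log2 fold changes ran from -0.86 for HOXA2 to 0.72 for HOXC5, and 27 of the 30 intervals lay within 1 on either side of 0, with bounds from -1.53 to 1.47. HOXB2 had the smallest adjusted p (0.28 ± 0.08, 0.0266 by edgeR). Because the doses differed, this is not a comparison of equal exposures.

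A comparison of the mutant lines, KDAC8H143A against KDAC6H611A, was added after values had been seen, because HOXB13 was above WT in both. Of 28 members tested, 14 were called higher in KDAC8H143A and 0 lower (24.3% and 20.9% of all genes tested), with a median log2 fold change of 1.26 (0.03 over all genes). HOXB13 was higher in KDAC8H143A by 5.38 ± 0.65 on the log2 scale (adjusted p = 3.39e-05 by edgeR), and by 4.27 to 5.69 with 1 library left out. By cluster, 8 of 9 tested members of HOXB, 3 of 4 of HOXD, 2 of 8 of HOXA and 1 of 7 of HOXC were called higher. With the correction for GC content and length the HOXA calls were lost.

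Of the remaining members, HOXA6 ranged from 0.548 to 3.49 CPM over all libraries, HOXA13 from 1.05 to 3.55, HOXC5 from 0.0 to 1.93, HOXC9 from 2.49 to 7.59, HOXC10 from 0.175 to 5.37 and HOXD13 from 0.0 to 2.19. In all, 16 of the 39 members were called in none of the 5 comparisons with WT. Of these, 11 were too low to be tested in any, and 23 members were tested in all 5.

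Noncoding RNAs of the clusters were measured beside the members. Of 24 such genes 10 reached 1 CPM in a library, and the 6 microRNA genes were at 0 in all. In KDAC8H143A 5 of 9 tested were called higher and 0 lower (31.6% and 26.9% of all genes tested). HOXB-AS1 was at 8.03 to 23.4 CPM against 1.76 to 3.95 in WT (log2 fold change 2.36 ± 0.34), HOXB-AS3 at 7.02 to 12.8 against 2.85 to 4.42 (1.51 ± 0.23) and HOXC-AS2 at 2.37 to 5.97 against 0.254 to 2.63 (1.67 ± 0.47). HOXD-AS2, at 0 in every WT library, was at 1.21 to 4.62 CPM, at least 6.7-fold higher against a floor of 3 counts per library. With Tubastatin A 1 of 7 was called higher and 2 lower (29.3% and 28.6% of all genes tested), and with PCI-34051 1 of 7 higher and 1 lower (25.5% and 25.6%). HOXB-AS3, which overlaps HOXB genes on the other strand, fell from 2.85 to 4.42 CPM in WT to 0.663 to 0.892 with Tubastatin A (-2.26 ± 0.26) and 0.768 to 1.09 with PCI-34051 (-1.93 ± 0.27). HOTAIRM1 rose with either (0.75 ± 0.17 and 0.95 ± 0.17). Of the 39 members, 20 share exon bases with a gene on the opposite strand, and without strand information in the counts such reads cannot be told apart.

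Genes flanking the clusters were mostly lower in KDAC8H143A. Of 13 tested, 2 were called higher and 8 lower (31.6% and 26.9% of all genes tested), with a median log2 fold change of -0.7, led by LNPK (listed as KIAA1715, -1.60 ± 0.20) and MTX2 (-1.58 ± 0.14) beside HOXD and by SNX10 (-1.33 ± 0.38) and SKAP2 (-1.23 ± 0.16) beside HOXA. With the inhibitors 10 of 13 (Tubastatin A) and 9 of 13 (PCI-34051) were called higher and 0 lower. Of all genes tested 29.3% and 25.5% were called higher, and 28.6% and 25.6% lower. SKAP2, a signalling adaptor, rose from 21.3 to 27.0 CPM in WT to 81.6 to 86.3 and 82.7 to 90.9 CPM, and HNRNPA1, an RNA-binding protein gene, by 1.04 ± 0.05 and 0.86 ± 0.06 on the log2 scale. In KDAC6H611A 1 of 14 tested was called higher and 2 lower (6.08% and 6.24% of all genes tested). TTLL6, a tubulin-modifying enzyme gene beside HOXB, was at 1.83 to 3.14 CPM in that line against at most 0.381 in WT, at least 5.0-fold higher. LNPK (-0.66 ± 0.11) and MTX2 (-0.65 ± 0.10) fell.

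HOX proteins bind DNA together with cofactors of the TALE family, encoded by PBX, MEIS and PKNOX genes. Of 9 such genes, 1 of 6 tested was called higher in KDAC6H611A (MEIS2, 0.68 ± 0.12) and 0 lower (6.08% and 6.24% of all genes tested). In KDAC8H143A 4 of 7 were higher and 2 lower (31.6% and 26.9% of all genes tested), among them MEIS3 (2.38 ± 0.31), MEIS2 (1.3 ± 0.17) and PBX2 (1.18 ± 0.13). PKNOX2 was at 1.65 to 22.6 CPM in that line and at 0 in WT, at least 17.0-fold higher on average and at least 6.43-fold without replicate 4 (floor of 3 counts per library). With Tubastatin A 4 of 7 were higher and 1 lower (29.3% and 28.6% of all genes tested), among the higher MEIS3 (2.19 ± 0.19), MEIS2 (1.29 ± 0.07) and MEIS1 (0.83 ± 0.21). With PCI-34051 4 of 7 were higher and 1 lower (25.5% and 25.6%), MEIS3 (1.67 ± 0.24) and MEIS2 (1.19 ± 0.07) among the higher, and PBX3 fell by 0.99 on the log2 scale.

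Retinoic acid is known to activate HOX genes from the low-numbered end of a cluster. Of 10 tested genes of its pathway, 7 were called higher and 1 lower with Tubastatin A (29.3% and 28.6% of all genes tested), and 9 higher and 1 lower with PCI-34051 (25.5% and 25.6%). DHRS3, which turns retinal back to retinol, went from 0.629 to 1.78 CPM in WT to 29.1 to 32.9 (4.51 ± 0.16) and 36.3 to 40.5 CPM (4.83 ± 0.16). ALDH1A3, which makes retinoic acid, was at 79.8 to 87.5 and 108 to 112 CPM against 9.65 to 12.3 in WT (2.82 ± 0.07 and 3.23 ± 0.07), and STRA6, the retinol transporter gene, was at least 10.7-fold and 10.0-fold higher. The binding protein gene CRABP2 was at 2.9 to 3.89 CPM with Tubastatin A and 1.69 to 2.03 CPM with PCI-34051, against 0.442 to 0.658 in WT. The receptor gene RARB was at 20.7 to 22.1 and 19.5 to 20.2 CPM against 4.53 to 5.26 in WT. Neither gene overlapped WT with either compound. In KDAC8H143A 5 of 9 were called higher and 2 lower (31.6% and 26.9%), with CRABP2 (2.09 ± 0.37) and RXRA (1.17 ± 0.13) higher and ALDH1A3 (-2.38 ± 0.23) and RARB (-1.21 ± 0.30) lower. In KDAC6H611A 2 of 8 were higher, RARB (0.81 ± 0.18) and RDH10 (0.62 ± 0.15), and 0 lower (6.08% and 6.24% of all genes tested).

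The chromatin regulators of the clusters were all expressed. Of 23 Polycomb genes, 8 were called higher and 7 lower in KDAC8H143A (34.8% and 30.4%, near the 31.6% and 26.9% of all genes tested), with JARID2 (1.15 ± 0.16), RING1 (1.24 ± 0.22) and CBX2 (1.16 ± 0.14) higher and RNF2 (-1.3 ± 0.20) lower. The same list had 9 higher and 4 lower with Tubastatin A (29.3% and 28.6% of all genes tested), 7 higher and 2 lower with PCI-34051 (25.5% and 25.6%) and 2 higher and 1 lower in KDAC6H611A (6.08% and 6.24%). JARID2 rose (0.98 ± 0.05 and 1.10 ± 0.07) and PHF19 fell (-0.79 ± 0.05 and -0.89 ± 0.06) with the inhibitors, and in KDAC6H611A CBX7 rose (1.40 ± 0.26) and CBX6 fell (-0.80 ± 0.10). Of 14 trithorax and MLL complex genes, 6 were called higher and 4 lower in KDAC8H143A (42.9% and 28.6%, the latter near the share of all genes), led by the demethylase gene KDM6B (40.5 to 78.9 CPM against 9.03 to 13.4, 2.54 ± 0.20), KMT2B (1.82 ± 0.20), DOT1L (1.76 ± 0.22) and KMT2D (1.51 ± 0.12). With either inhibitor 1 was higher and 4 lower (7.14% and 28.6%), KMT2D (-0.77 ± 0.05 and -0.67 ± 0.07) and DOT1L (-0.60 ± 0.08 and -0.46 ± 0.08) among the lower. Of all genes tested 29.3% were called higher and 28.6% lower with Tubastatin A, and 25.5% and 25.6% with PCI-34051. The share of lower genes was thus near that of all genes. In KDAC6H611A 1 was higher (KMT2C, 0.53 ± 0.11) and 1 lower (PSIP1, -0.44 ± 0.08), where 6.08% and 6.24% of all genes tested were called.

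HOX-like genes outside the clusters stayed low. Of 11 such genes, 10 were under 1 CPM in every library of every group, and GBX2, a hindbrain boundary gene, was the single one tested against WT. It was at 3.39 to 9.51 CPM in KDAC8H143A and 0.877 to 2.01 CPM in WT (1.99 ± 0.37, adjusted p = 0.000482 by edgeR). Of the 8 mesenchymal markers, 3 were called higher and 3 lower in KDAC8H143A (31.6% and 26.9% of all genes tested), with COL5A1 higher (2.37 ± 0.18) and COL1A2 lower (-4.59 ± 0.70). With each inhibitor 3 were higher and 2 lower (29.3% and 28.6% of all genes tested with Tubastatin A, 25.5% and 25.6% with PCI-34051). In KDAC6H216A 0 genes of these lists were called in edgeR's test, where 0.214% of all genes tested were called higher and 0.621% lower.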

How the data were processed

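The deposited values are RSEM's expected counts, not normalized, made by the authors from paired reads of rRNA-depleted RNA. According to the methods and the submitters' notes they used Trimmomatic 0.39, Bowtie2 2.4.5 and RSEM 1.3.3 on GRCh38 (DESeq2 1.38.2 served their own tests). The annotation release is not given in the sources used here, and 10.6% to 13.5% of the values were not whole. Reads of repeated or overlapping exons were split by RSEM, and strand was not stated.

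The expected counts were rounded. Groups were compared in fits of their own libraries with edgeR 4.0.16 in R 4.3.3 (filterByExpr, TMM, glmQLFit and glmQLFTest), with Benjamini-Hochberg adjustment over all genes tested and a threshold of 0.01. The SE is the log2 fold change over the square root of F. Printed CPM use TMM factors over all 22 libraries on the filtered genes, with the deepest WT library as reference, and CPM per kb use the exon length of GENCODE 44, to which 56558 of 60675 genes and 39 of 39 members matched. Total counts from 5248953 to 29862665 limit what could be seen: 3 counts were 0.0922 to 0.658 CPM.

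Values in every library are given for members called against WT with a group mean of 1 CPM or more. Of each list outside the clusters at most 4 called genes were picked per comparison with WT, and some are also given for another comparison. The members, lists and comparisons were chosen with earlier results of these data known, and KDAC8H143A against KDAC6H611A was added later. Alternatives were DESeq2 1.42.0, upper quartile and total count scaling, other filters and thresholds, all 6 groups in one fit, a GC and length correction (mgcv 1.9.3), the replicate block and single libraries left out. The fits were tried on simulated counts for KDAC6H216A against WT, Tubastatin A against WT and Tubastatin A against PCI-34051. Few genes were changed there, evenly up and down, and all genes had the same spread. KDAC8H143A was not simulated, so its fits were not checked in this way. Plots used matplotlib 3.10.9, and tables scipy 1.17.1, pandas 2.3.3 and numpy 2.4.6 under python 3.11.15. Some genes counted in these totals are not reported here by name.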

Additional observations from a re-analysis of the deposited data

Results flagged for a closer look

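Among the 92 groups of 4 libraries formed by the 23 members named with values, 7 had a library far from the other 3 by Dixon's criterion, where chance gives about 1 in 20 groups, or 4.6. HOXB13 was at 505 CPM in replicate 4 of KDAC8H143A, whose next value was 126 CPM, and HOXD11 at 17.6 CPM in the same library, whose next value was 10.7 CPM. HOXA4 was at 4.21 CPM in replicate 2 of KDAC8H143A (next 3.02). HOXA5 was at 0.274 CPM in replicate 1 of KDAC6H611A (next 1.37), and HOXB8 at 3.4 CPM in replicate 1 of KDAC6H216A (next 2.23). In WT, HOXB13 was at 0.877 CPM in replicate 1 (next 1.01) and HOXC6 at 3.78 CPM in replicate 2 (next 3.31). HOXB13 also differed between the KDAC6 mutant lines, by 3.78 on the log2 scale in KDAC6H611A against KDAC6H216A (adjusted p = 0.000111 by edgeR).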

How the results depend on the processing

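Over all alternatives no called member turned direction. Of the called members that every fit tested, those called in each were 9 of 11 in KDAC8H143A, 7 of 10 with Tubastatin A, 5 of 6 with PCI-34051, 11 of 16 for PCI-34051 against KDAC8H143A and 10 of 12 for KDAC8H143A against KDAC6H611A. The HOXB13 call in KDAC6H611A was lost in the fit of all 6 groups. At an adjusted p of 0.05 the called members were 4 in KDAC6H611A, 15 with PCI-34051, 3 for KDAC6H611A against KDAC6H216A and 1 between the inhibitors (HOXB2). In KDAC6H611A DESeq2 called 2, no filter gave 3, the GC and length correction 2, and the block with that correction 2. With at least 10 counts in every library 0 were called in KDAC6H611A and 0 for KDAC6H611A against KDAC6H216A, since HOXB13 was then not tested. All 6 groups in one fit gave 3 for KDAC6H611A against KDAC6H216A, and no filter gave 1 between the inhibitors. Scaling by the total count alone moved the median of all genes by 0.39 with PCI-34051, 0.35 with Tubastatin A, 0.29 in KDAC8H143A, 0.27 for KDAC8H143A against KDAC6H611A, 0.17 in KDAC6H216A and -0.13 for KDAC6H611A against KDAC6H216A on the log2 scale, and gave 19 calls with PCI-34051 (18 higher, 1 lower). Leaving out 1 library gave 0 to 3 calls in KDAC6H216A (3 without its replicate 1), 1 to 3 in KDAC6H611A (3 without its replicate 2), 13 to 15 in KDAC8H143A, 12 to 16 with Tubastatin A, 8 to 11 with PCI-34051, 1 to 1 for KDAC6H611A against KDAC6H216A, 13 to 18 for PCI-34051 against KDAC8H143A and 0 to 0 between the inhibitors. In no comparison did every pair of same-numbered libraries deviate together (correlation over 0.1). Single pairs did, with a correlation of up to 0.381 in KDAC6H611A against KDAC6H216A. Whether same-numbered libraries were prepared together cannot be told from these values. The replicate block gave 13 calls in KDAC8H143A, 12 with Tubastatin A, 9 with PCI-34051, 1 in KDAC6H611A and 0 in KDAC6H216A, and the cause of changed calls was not tested.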
